A study of Mus musculus with 20 samples.

Results

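The MYC network was followed in BMDCs, dendritic cells grown from mouse bone marrow, through 9 transcription factor genes taken by symbol from the count table (Myc, Mycl, Mycn, Max, Mxd1, Mxd4, Mxi1, Mnt and Mga), which are 9 of the 24421 genes listed. BMDCs came from 5 wild-type C57BL/6 mice, named A to E, and were grown from bone marrow for 8 days with 40 ng/mL GM-CSF, so that all groups share genotype and culture. Cells in 4 groups were stimulated for 4 h with ovalbumin alone (DMSO Ova and iBET Ova) or with ovalbumin in IgG immune complexes (DMSO IC and iBET IC). The cells of each mouse were taken to be split over the 4 groups, a pairing inferred from the order of the library titles. iBET is I-BET151, an inhibitor of the BET family of bromodomain proteins, and was used at 3.3 µM; the control groups received 5% DMSO per the labels, which do not give the DMSO content of the iBET groups. The labels describe drug and stimulus as given together, while the methods place the drug first. The age of the mice is not given in the sources used here, and no group was left unstimulated. All 20 libraries are from bulk RNA, in which fewer cells of a type and less RNA per cell cannot be told apart.

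MYC, MYCL and MYCN are basic helix-loop-helix leucine zipper proteins that bind E-box DNA only after pairing with MAX, and they activate genes of ribosome production, metabolism and the cell cycle. MXD1, MXD4, MXI1 and MNT compete for the same partner and recruit SIN3 and histone deacetylase corepressors to E-boxes, while MGA, a large protein with an additional T-box domain, pairs with MAX inside a repressive chromatin complex. In many blood cell lineages MYC falls and MXD1 rises as cells leave the cycle, MYCL is known as the family member of differentiated dendritic cells, and MYC is a widely studied gene in BET inhibition of blood cancers.

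On GRCm38, with GENCODE M21, Myc lies at chr15:61985391-61990374 and Mycl at chr4:122995652-123002485, both on the plus strand, and Mycn at chr12:12936093-12941914 on the minus strand. Max lies at chr12:76937269-76962201, Mxd1 at chr6:86647042-86669161 and Mxd4 at chr5:34173883-34187720, all on the minus strand. Mxi1 at chr19:53310518-53375810, Mnt at chr11:74830920-74845725 and Mga at chr2:119897228-119969581 are on the plus strand. Counts are of whole genes, and Max, Mxd1, Mxd4 and Mxi1 overlap other annotated genes (Gm47218, Gm44292, Gm42846, and AC133451.2 with Gm10197), none of which is a row of the count table. The strand setting of the counting is not given in the sources used here, so reads of these overlaps could not be separated.

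Because these proteins themselves bind E-boxes, the RefSeq promoter windows of the genes (GRCm38.p6, 250 bases before to 50 bases after the start) were searched for CACGTG, the canonical E-box, and for its variant CACGCG, each on both strands. Of the 9 genes, 8 had a window. Myc had none and so could not be searched. CACGTG was in the windows of 3 of them and CACGCG in those of 2 others, whereas 7.15% of all 32851 promoter windows held CACGTG and 9.27% held CACGCG. The network is counted here by gene, of which Mxi1 had 3 windows, while the percentages are of windows, which belong to 27025 genes. A match describes letters only. The 30 bases around each match are shown 5′ to 3′ on the gene's strand with the match in capitals, because they are the same kind of site as the proteins bind. The Max match began 3 bases before the start (chr12:76962234-76962263, minus strand), that of Mxd4 219 bases before it (chr5:34187912-34187941, minus strand), and that of Mnt 123 bases before it (chr11:74830789-74830818, plus strand). The Mycl match began 20 bases before the start (chr4:122995899-122995928, plus strand) and that of Mga, read on the other strand, 21 bases before it (chr2:119897195-119897224, plus strand). These starts are those of the RefSeq windows and need not equal the GENCODE ones above. The Mycl stretch lies inside the GENCODE span of that gene.
Max: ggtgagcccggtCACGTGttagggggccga
Mxd4: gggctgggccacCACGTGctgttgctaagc
Mnt: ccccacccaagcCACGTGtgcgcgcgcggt
Mycl: ccaagccccgggCACGCGacgagatataaa
Mga: agctggtaggagCGCGTGcgcagtgacgtg

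Library totals ranged from 16447491 to 29245150 counts. Of the 12465 genes that passed the filter on low counts, 8 were MYC network genes; Mycn did not pass. Of 7 conventional dendritic cell markers, Itgax (1718 to 2725 CPM) and Cd74 (1859 to 5368 CPM) were high in every library, and H2-Aa (203 to 870.1 CPM), H2-Ab1 (185 to 566 CPM) and Zbtb46 (11.9 to 41.8 CPM) were lower. Ciita ranged from 0.606 to 80.5 CPM, and Flt3 was close to absent at 0.121 to 4.94 CPM. T and B cell markers summed to at most 0.801 and 0.726 CPM, and macrophage markers were also present (summed level 905 to 2043 CPM). The libraries of mice A and B stood apart from those of mice C, D and E: on the second principal component (14.9% of the variance) they lay from -33.8 to -18.6 and the others from 9.83 to 23.5. In every group the 4 mature dendritic cell markers summed to less in mice A and B (196 to 559 CPM) than in mice C, D and E (743 to 1501 CPM), and macrophage markers summed to more. The labels name no batch. The methods mention removal of batch effects with the sva package but name no batch, so animal and batch cannot be told apart here. Where the call of a network gene in a pairwise comparison was gained or lost within 1 of these sets, that value is given beside the gene.

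In these cells the network was mostly repressor and MAX transcript. Compared per kb of exon (CPM per kb, a level), Max stood at 11.4 ± 1.13 in DMSO Ova (SD, n = 5), Mxd1 at 9.09 ± 2.54, Mnt at 8.92 ± 1.23, Mxi1 at 7.70 ± 1.38 and Mga at 6.82 ± 0.903. Myc stood at 6.78 ± 3.05 and Mycl at 4.67 ± 3.02, while Mxd4 was the lowest of the tested genes at 2.03 ± 0.377. Mycn was close to silent: 16 of 20 libraries held no count, the highest held 2, and all 20 held 5 counts together, so its level lay under the limit of 3 counts, or 0.103 to 0.182 CPM depending on the library. That limit covers counting error only. Of the 8 genes Max varied least between mice. The SD of its log2 CPM within groups was 0.0998, lower than that of all but 11.8% of tested genes, whereas Mycl (1.11) and Myc (0.622) varied more than 99.1% and 94.3% of tested genes, whose median SD was 0.184.

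**Figure D1:**
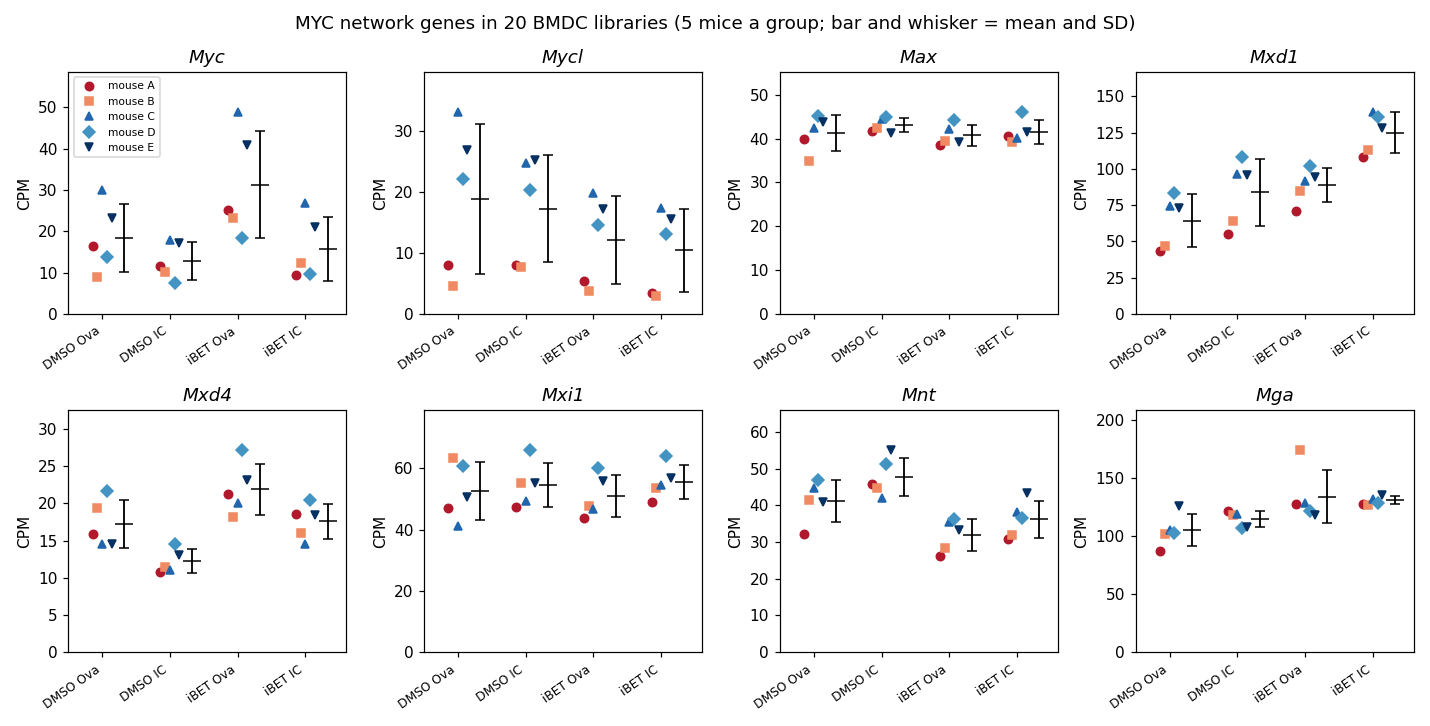
CPM (counts scaled by TMM-adjusted library size) of the 8 tested MYC network genes in each of the 20 libraries, by group, with a symbol for each mouse and the group mean and SD beside the points. Max stays between 34.8 and 46.0 CPM throughout, Mxd1 is highest in iBET IC (108 to 139 CPM), and mice A and B (circles and squares) lie below mice C, D and E for Mycl in every group.

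The central partner, Max, showed no detectable change. Its levels were 39.8, 34.8, 42.3, 45.1 and 43.8 CPM in mice A to E in DMSO Ova, and 39.2 to 46.0 CPM in iBET IC, so that the groups overlapped. The log2 fold change of iBET against DMSO was -0.02 with Ova (95% interval -0.16 to 0.12) and -0.05 with IC (-0.19 to 0.09), and that of IC against Ova was 0.06 with DMSO (-0.08 to 0.20) and 0.03 with iBET (-0.11 to 0.17). None was called by edgeR (adjusted p from 0.535 to 0.844), and with library size alone as scaling both IC values turned negative (-0.05 and -0.08).

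Myc, the namesake activator, was highest in iBET Ova. In mice A to E it measured 16.4, 8.83, 29.9, 13.7 and 23.2 CPM in DMSO Ova and 25.1, 23.2, 48.8, 18.3 and 40.9 CPM in iBET Ova. Each mouse was thus higher with iBET, by 1.34-fold to 2.63-fold, but mice differed so much that the groups overlapped. The log2 fold change was 0.76 ± 0.356 (SE), with an edgeR adjusted p of 0.0755 when the mouse was not in the fit and 2.02e-05 with the mouse as a block (0.75, 95% interval 0.50 to 1.00). Without a block DESeq2 called it (adjusted p 0.0488), and edgeR called it in mice A and B alone (0.91, adjusted p 0.0149). With IC the levels were 11.6, 10.2, 18.0, 7.45 and 17.1 CPM in DMSO and 9.36, 12.2, 26.8, 9.54 and 21 CPM in iBET. Here 4 of 5 mice were higher with iBET and mouse A was lower. The log2 fold change of 0.29 ± 0.363 was not called by edgeR without the block (adjusted p 0.523) or with it (adjusted p 0.086).

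Under IC, Myc was lower than under Ova. With DMSO the fold within a mouse ranged from 0.544 to 1.16 and 4 of 5 mice were lower, with a log2 fold change of -0.52 ± 0.361 (edgeR adjusted p 0.342, and 0.00374 with the mouse as a block). With iBET all 5 mice were lower, at 0.373 to 0.548 of their Ova level. That log2 fold change was -0.99 ± 0.359 (edgeR adjusted p 0.0773, and 7.79e-06 with the mouse as a block), and DESeq2 without a block also called it (adjusted p 0.0371). In mice A and B alone edgeR called the difference (log2 fold change -1.15, adjusted p 0.0479). The effect of iBET on Myc was smaller with IC than with Ova in 5 of 5 mice, but the interaction was not called (log2 difference -0.47 ± 0.507, edgeR adjusted p 1, and -0.50 with adjusted p 0.249 with the block; DESeq2 with the block gave -0.51, adjusted p 0.162). The ordering of the group means, from iBET Ova through DMSO Ova and iBET IC to DMSO IC, had no neighbours that differed by more than the larger of their SDs.

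Mycl, the paralog associated with dendritic cells, differed by mouse in every group. In DMSO Ova it measured 7.96 and 4.51 CPM in mice A and B but 33.0, 22.0 and 26.8 CPM in mice C, D and E. Over all groups mice A and B lay between 2.88 and 7.96 CPM and the other 3 between 13.0 and 33.0 CPM, with no overlap. Mature dendritic cell markers split the mice in the same way, and their part in the Mycl level was not tested.

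Within each mouse Mycl was lower with iBET. Its fold was 0.602 to 0.842 with Ova and 0.375 to 0.703 with IC, in 5 of 5 mice each time. Without the mouse in the fit, the log2 fold changes of -0.64 ± 0.581 and -0.74 ± 0.587 were not called (edgeR adjusted p 0.362 and 0.295). With the mouse as a block they were -0.60 (95% interval -0.83 to -0.37) and -0.83 (-1.07 to -0.59), with edgeR adjusted p of 0.000107 and 3.47e-06. In mice C, D and E alone, both were called (-0.62 and -0.59, edgeR adjusted p 0.0039 and 0.00637). In mice A and B alone, edgeR called the difference with IC (-1.29, adjusted p 0.00494) and not that with Ova (-0.45, adjusted p 0.214). Against Ova, IC gave log2 fold changes of -0.13 with DMSO and -0.23 with iBET, and neither was called in any of these fits (edgeR adjusted p 0.908 and 0.855, and 0.795 and 0.093 with the block). In the direction of change with iBET, Myc and Mycl therefore differed in the blocked fits with Ova, where Myc rose and Mycl fell. Mature dendritic cell markers were also lower with iBET: their summed level had a median of 1257 CPM in DMSO Ova and 743 in iBET Ova, and of 1342 in DMSO IC and 904 in iBET IC. By group only 2 of the 4 fell under each stimulus (median log2 fold changes -0.74 and -0.72). Of all genes, 28.9% were called lower with Ova and 29% with IC. With the block all 4 fell, where 68.7% and 68% of all genes were called higher or lower. Of the 7 macrophage markers 4 fell with Ova and 3 with IC by group only (medians -0.68 and -0.38). The part of either in the fall of Mycl was not tested.

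**Figure D2:**
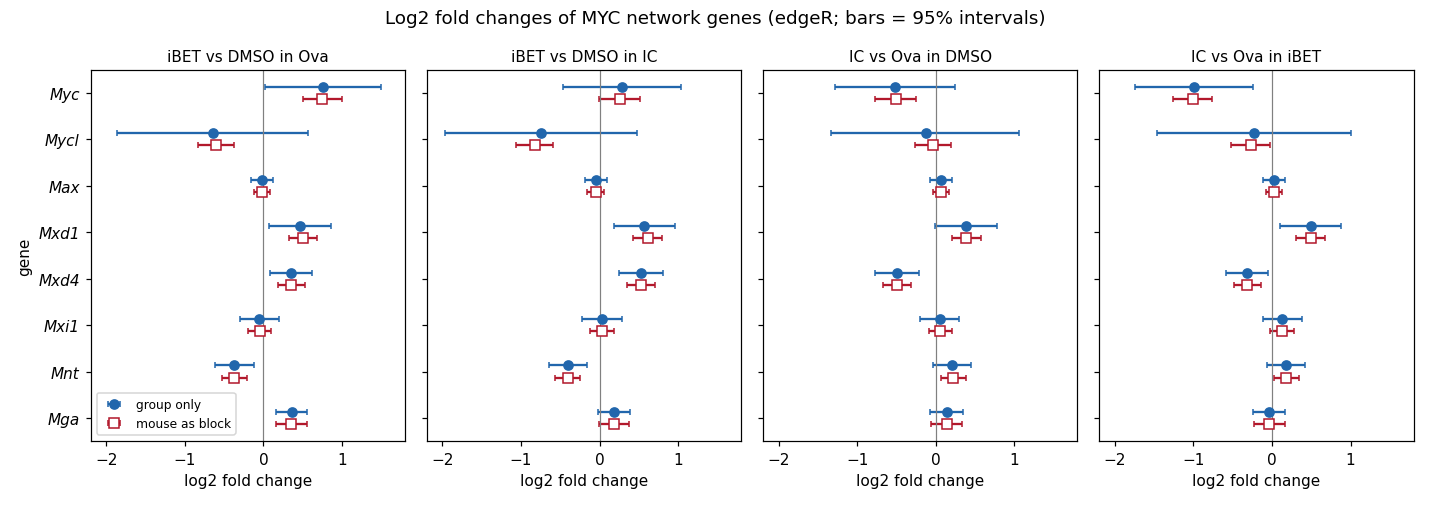
Log2 fold changes of the 8 tested MYC network genes in the 4 pairwise comparisons, with 95% intervals, from edgeR fits by group only (filled circles) and with the mouse as a block (open squares). Intervals of Myc and Mycl narrow most with the block, the Max intervals include 0, and the Mnt intervals with iBET lie below 0 in both fits.

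Mxd1, the MAX partner that rises with terminal myeloid differentiation, was higher with iBET and highest in iBET IC. In mice A to E it measured 43.2, 47.0, 74.7, 83.5 and 72.9 CPM in DMSO Ova and 71.1, 84.5, 91.9, 102 and 94.5 CPM in iBET Ova, higher in 5 of 5 mice. In DMSO IC it measured 54.9, 64.2, 96.3, 108 and 95.6 CPM, and in iBET IC 108, 113, 139, 136 and 128 CPM. With iBET it rose by 0.47 ± 0.188 on the log2 scale in Ova cells (edgeR adjusted p 0.0413) and by 0.57 ± 0.188 in IC cells (adjusted p 0.0139). The call with Ova was lost without mouse B, C or E (edgeR adjusted p 0.0929, 0.0618 and 0.0875) and with library size alone as scaling (0.0875), and that with IC was kept in each of the 12 fits tried on all mice or without 1 mouse. Each call was also made in either set of mice alone.

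IC also went with more Mxd1 in every mouse, by 1.27-fold to 1.37-fold with DMSO and by 1.33-fold to 1.51-fold with iBET. Those folds were narrow within mice, although mice differed in level. The log2 fold changes were 0.38 ± 0.188 and 0.49 ± 0.187, with edgeR adjusted p of 0.162 and 0.0969 by group only and of 0.00207 and 0.000331 with the mouse as a block. In mice C, D and E alone edgeR called both (0.39 and 0.48, adjusted p 0.0021 and 0.00128). With iBET the Ova and IC groups did not overlap. In the order of group means, from iBET IC through iBET Ova and DMSO IC to DMSO Ova, the first step was larger than the SDs (35.8 CPM against 13.9) and the other two were not.

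Mxd4, another MXD repressor, answered the 2 treatments in opposite directions. In mice A to E it measured 15.9, 19.4, 14.6, 21.6 and 14.5 CPM in DMSO Ova, 10.8, 11.4, 11.0, 14.6 and 13.1 CPM in DMSO IC, 21.3, 18.1, 20.1, 27.1 and 23.1 CPM in iBET Ova and 18.6, 16.0, 14.5, 20.5 and 18.4 CPM in iBET IC. With IC it fell in the DMSO cells, in 5 of 5 mice, by 0.50 ± 0.133 on the log2 scale (edgeR adjusted p 0.0124). That call was lost without mouse B (adjusted p 0.0664) and in mice C, D and E alone (0.127). In the iBET cells IC gave -0.32 ± 0.131 (edgeR adjusted p 0.122, and 0.00807 with the block). With iBET it rose with IC in 5 of 5 mice (0.53 ± 0.133, edgeR adjusted p 0.00216) and with Ova in 4 of 5 (0.35 ± 0.131, adjusted p 0.0284), mouse B being the exception at 0.931-fold. The Ova call was lost without mouse A, C or E (edgeR adjusted p 0.0868, 0.0635 and 0.151), with library size alone (0.0551) and in mice A and B alone (0.374).

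Mnt, the broadly expressed antagonist of MYC, was lower with iBET in all 5 mice under both stimuli. It measured 32.1, 41.4, 44.9, 46.9 and 40.9 CPM in DMSO Ova and 26.3, 28.5, 35.5, 36.2 and 33.4 CPM in iBET Ova. With IC it measured 45.9, 44.8, 42.0, 51.2 and 55.0 CPM in DMSO and 30.8, 32.0, 38.1, 36.7 and 43.5 CPM in iBET. It fell by 0.37 ± 0.117 on the log2 scale with Ova (edgeR adjusted p 0.011) and by 0.40 ± 0.116 with IC (adjusted p 0.0062). The Ova call was lost without mouse B (edgeR adjusted p 0.0823). Against Ova, IC gave 0.21 ± 0.116 with DMSO (edgeR adjusted p 0.215, and 0.0322 with the block) and 0.18 ± 0.117 with iBET (0.363, and 0.0929 with the block).

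Mxi1, a repressor of the MXD group, was level. It lay between 41.0 and 65.8 CPM in all libraries, and its log2 fold changes were -0.05 and 0.03 with iBET and 0.05 and 0.13 with IC. The widest of the 4 intervals ran from -0.30 to 0.20 and none was called (edgeR adjusted p from 0.562 to 0.870). Of its 4 signs, 3 turned in some alternative.

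Mga, the partner with 2 DNA-binding domains, was higher with iBET in Ova cells. It measured 87.3, 102, 105, 103 and 126 CPM in mice A to E in DMSO Ova and 128, 174, 129, 122 and 118 CPM in iBET Ova. Of the 5 mice 4 were higher and mouse E was lower, and mouse B in iBET Ova lay far above the rest. The rise of 0.36 ± 0.0969 (edgeR adjusted p 0.00357) was 0.27 without mouse B (adjusted p 0.0141) and 0.20 in mice C, D and E alone, where it was no longer called (edgeR adjusted p 0.0571). With IC it ran from 107 to 122 CPM in DMSO and from 127 to 136 CPM in iBET, without overlap and higher in 5 of 5 mice. That difference of 0.18 ± 0.0968 was not called by edgeR by group only (adjusted p 0.112) or with the block (0.0806). It was called with surrogate variables (0.19, edgeR adjusted p 0.027), without mouse B (0.23, adjusted p 0.0378) and in mice C, D and E alone (0.28, adjusted p 0.0109). IC against Ova gave 0.14 and -0.04, neither called (edgeR adjusted p 0.359 and 0.843).

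Counted together, 4 of the 8 tested genes were called with iBET in Ova cells (Mxd1, Mxd4 and Mga higher, Mnt lower), where edgeR called 56.6% of all tested genes (27.7% higher and 28.9% lower). In IC cells 3 were called (Mxd1 and Mxd4 higher, Mnt lower) against 56.1% of all genes (27.1% higher and 29% lower). For IC against Ova, 1 was called with DMSO (Mxd4 lower) against 20.3% of all genes (9.59% higher and 10.7% lower). With iBET 0 were called against 11.8% (5.19% higher and 6.63% lower; 3 of 8 had an unadjusted p under 0.05 in edgeR, and DESeq2 called 1, Myc). The medians over the 8 genes were 0.17, 0.11, 0.06 and -0.01 on the log2 scale, beside -0.003, -0.005, -0.024 and -0.014 over all genes. These shares are near or below the background, so the count itself sets the network apart in no comparison. With the mouse as a block the calls were 6, 4, 4 and 3 of 8, against 68.7%, 68%, 38.1% and 28.9% of all genes. The genes added by the block were Myc and Mycl with iBET in Ova cells, Mycl with iBET in IC cells, Myc, Mxd1 and Mnt for IC with DMSO, and Myc, Mxd1 and Mxd4 for IC with iBET. For the interaction edgeR called 0 of the 8 (0.0401% of all genes), none of them with an unadjusted p under 0.05. It called 0 with the block (0.818% of all genes), where 1 of 8, Myc, had an unadjusted p under 0.05. DESeq2 also called 0 in both of its fits, with 0 of 8 under that unadjusted limit without the block and 1 of 8, Myc, with it.

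Because MYC and MXD1 compete for MAX, their transcripts were also set against each other per kb of exon. The Mxd1 level per Myc level was 1.01, 2.04, 0.959, 2.34 and 1.21 in mice A to E in DMSO Ova and 1.82, 2.42, 2.06, 5.57 and 2.15 in DMSO IC. It was 1.09, 1.40, 0.723, 2.14 and 0.888 in iBET Ova and 4.42, 3.55, 2.00, 5.48 and 2.34 in iBET IC. Within a mouse IC went with a higher ratio in 5 of 5 mice, by 1.19-fold to 2.38-fold with DMSO and by 2.54-fold to 4.06-fold with iBET. The difference between these ranges was not tested. With iBET the ratio moved by 0.686-fold to 1.08-fold in Ova cells (higher in 1 of 5 mice) and by 0.971-fold to 2.43-fold in IC cells (higher in 3 of 5). The ratio is a description of transcripts and no test was made on it.

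**Figure D3:**
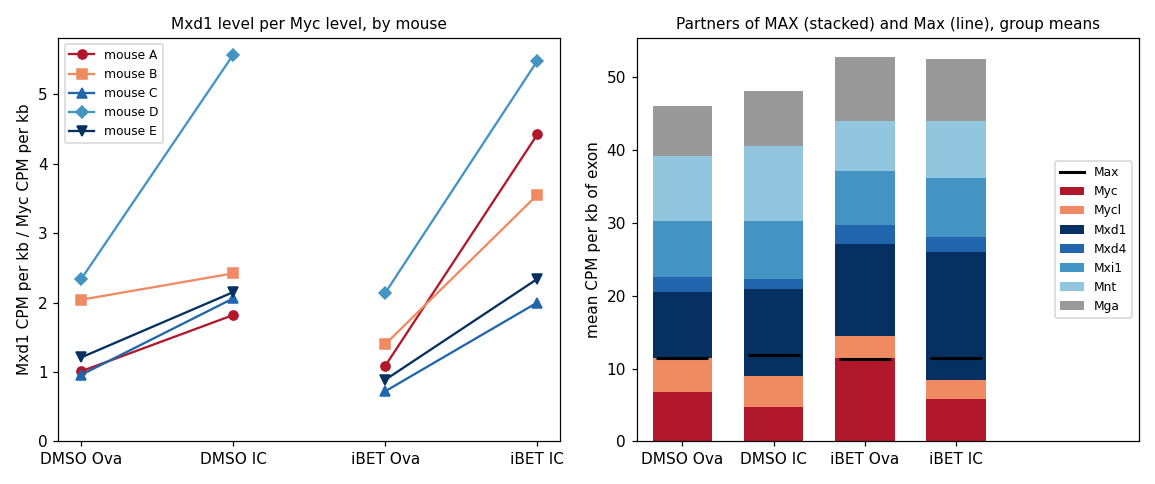
Left, the Mxd1 level divided by the Myc level (both CPM per kb of exon) in each group, with lines joining the Ova and IC libraries of a mouse given the same drug. Every line rises from Ova to IC. Right, group mean levels (CPM per kb) of the tested partners of MAX among the 9 genes, stacked. A black line marks the mean level of Max, which stays between 11.3 and 11.9. Mxd1 goes from 9.09 in DMSO Ova to 17.6 in iBET IC.

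Shares were taken of the partners of MAX among the 9 genes, summed per kb, which leaves out Mxd3. Myc and Mycl together held 23.9% ± 9.12 in DMSO Ova and 18.3% ± 5.10 in DMSO IC (SD, n = 5). They held 26.8% ± 8.03 in iBET Ova and 15.4% ± 5.97 in iBET IC. Mxd1 alone held 19.5% ± 2.47, 24.3% ± 3.84, 23.9% ± 2.39 and 33.7% ± 1.88 in the same order. In iBET IC its share ran from 30.9% to 35.5% and lay above that of every other library, the next highest being 29.2%. RNA shares do not measure protein or dimers.

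The parallel arm of the network pairs with MLX in place of MAX. Mlx rose with iBET in 5 of 5 mice under both stimuli (log2 fold change 0.30 with each, edgeR adjusted p 0.00379 with Ova and 0.0035 with IC). Outside this arm, Mxd3, a MAX partner of the MXD family expressed in cycling cells, fell with IC in 5 of 5 mice. The fall was 0.59 ± 0.156 with DMSO (edgeR adjusted p 0.0121) and 0.56 ± 0.156 with iBET (adjusted p 0.0231). Mlxip, which encodes the glucose sensor MONDOA, gave 0.29 and 0.34 with iBET and was not called (edgeR adjusted p 0.11 and 0.0577). With IC Mlx gave 0.22 with DMSO and with iBET (edgeR adjusted p 0.0642 and 0.0832) and was called with the mouse as a block (adjusted p 0.0037 and 0.00497). Mlxipl, encoding the sensor ChREBP, was too low to test: the 10 DMSO libraries held 0 or 1 count each, the iBET Ova libraries 3 to 9 and the iBET IC libraries 2 to 6.

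Coactivators that MYC recruits moved in both directions with iBET. Of the 11 listed, 5 rose and 3 fell with Ova and 5 rose and 4 fell with IC, with medians of 0.31 and 0.27, where 56.6% and 56.1% of all genes were called. For IC against Ova 0 rose and 1 fell with DMSO and with iBET, where 20.3% and 11.8% of all genes were called. When the mouse was a block 1 rose and 1 fell with DMSO, where 38.1% of all genes were called. With the block 6 rose and 3 fell with iBET in Ova cells and 5 rose and 5 fell in IC cells, against 68.7% and 68% of all genes. The scaffold Trrap rose most (1.26 and 1.22), followed by Ep400 (0.77 and 0.93), both chromatin remodelling and acetylation partners. The acetyltransferase Kat2a fell with iBET (-0.62 and -0.46) and again with IC (-0.43 with DMSO and -0.28 with iBET), and Kat5 and the helicase Ruvbl1 fell with iBET. Among the 7 genes for corepressors and for Zbtb17, which encodes the MYC-bound factor MIZ1, Sin3a (0.66 and 0.73), Sin3b (0.32 and 0.33) and Hdac2 (0.41 and 0.36) rose with iBET. Zbtb17 fell with iBET (-0.48 and -0.49), as Ncor1 did in IC cells (-0.22). Zbtb17 rose with IC (0.37 with DMSO and 0.35 with iBET), Sin3b rose with IC by a smaller amount, and Sin3a fell with IC in DMSO cells (-0.18). In all, 3 of the 7 rose and 1 fell with iBET in Ova cells, and 3 rose and 2 fell in IC cells. There 56.6% and 56.1% of all genes were called. For IC 2 rose and 1 fell with DMSO and 2 rose and 0 fell with iBET, beside 20.3% and 11.8% of all genes. The block moved only the counts with iBET in Ova cells, to 4 and 2, where 68.7% of all genes were called. Each named call had an edgeR adjusted p no higher than that of Kat2a for IC with iBET, 0.0281.

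Of 11 genes whose products control MYC protein stability, 7 rose and 2 fell with iBET under each stimulus, with medians of 0.26 and 0.28, again beside 56.6% and 56.1% of all genes called. The ubiquitin ligase gene Fbxw7, which marks MYC for destruction, rose by 0.68 ± 0.0955 with Ova and 0.72 ± 0.095 with IC (edgeR adjusted p 5.26e-06 and 2.31e-06). Skp2, encoding another ligase of MYC, rose by 0.50 and 0.44, and Usp28, encoding an enzyme that opposes FBXW7, by 0.21 and 0.27. Plk1, encoding a mitotic kinase, fell by 0.69 and 0.94, and Set by 0.32 and 0.44. For IC, 2 rose and 1 fell with DMSO (20.3% of all genes called), Skp2 higher and Usp28 lower among them, and with iBET Plk1 and Usp28 fell (11.8% of all genes called). With the mouse as a block 4 rose and 2 fell with IC in DMSO cells, and 3 rose and 2 fell in iBET cells, where 38.1% and 28.9% of all genes were called.

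The RNA of MYC-activated genes also moved in both directions with iBET, with more genes called higher than lower. Of 35 listed genes, 14 rose and 3 fell with iBET in Ova cells (median 0.13), and 10 rose and 5 fell in IC cells (median 0.11), against 27.7% higher and 28.9% lower among all genes with Ova and 27.1% and 29% with IC. With the block these counts were 15 and 5, and 12 and 7, where 68.7% and 68% of all genes were called in either direction. Odc1, the polyamine enzyme gene, rose from 75.1 ± 5.86 to 172 ± 5.52 CPM with Ova (SD, n = 5, log2 fold change 1.19, edgeR adjusted p 1.96e-10) and by 1.17 with IC. The nucleolar genes Nop56 (0.96 and 0.85) and Ncl (0.86 and 0.87) rose as well. The nucleolar methyltransferase gene Fbl fell (-0.30 and -0.32), as did the DNA repair gene Apex1 (-0.60 and -0.49). Wdr12 fell with iBET in Ova cells (-0.28, edgeR adjusted p 0.0255) and Slc3a2 in IC cells (-0.56, edgeR adjusted p 3.26e-05).

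For IC against Ova, 15 of the 35 rose and 1 fell with DMSO (median 0.23), where 9.59% of all genes were called higher, and 5 rose and 2 fell with iBET (median 0.15), where 5.19% of all genes were called higher and 6.63% lower. With the mouse as a block these were 20 and 2, and 13 and 4, where 38.1% and 28.9% of all genes were called in either direction. The glycolytic Hk2 rose by 0.59 ± 0.114 with DMSO (edgeR adjusted p 0.00127) and by 0.86 ± 0.114 with iBET (adjusted p 6.36e-05), and the translation factor genes Eif4e (0.53 with DMSO) and Eif4a1 (0.56 with iBET) rose. Slc7a5, the amino acid transporter gene, fell by 0.53 ± 0.158 with DMSO and by 0.55 ± 0.157 with iBET (edgeR adjusted p 0.0218 and 0.0281), although its partner chain Slc3a2 rose with DMSO (0.58). In iBET cells Odc1 also rose with IC (0.43) and Bop1 fell (-0.26). Of the called targets, 15 of 16 with DMSO and 5 of 7 with iBET were higher with IC. Among all genes called, 1196 of 2531 with DMSO and 647 of 1474 with iBET were higher. Myc was lower in 4 of 5 and 5 of 5 mice, and edgeR by group only did not call it (adjusted p 0.342 and 0.0773). A link between Myc and these targets was not tested.

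**Figure D4:**
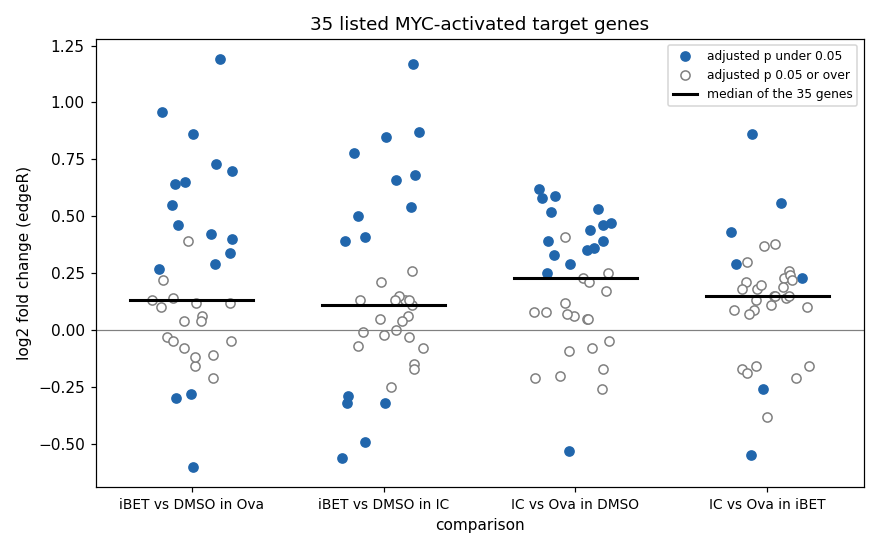
Log2 fold changes (edgeR, all 20 libraries) of 35 listed MYC-activated genes in the 4 pairwise comparisons, 1 point a gene, filled where the adjusted p over all genes was under 0.05, with the median as a black line. With iBET the called genes lie on both sides of 0, more of them above it. With IC in DMSO cells 15 of 16 called genes lie above 0.

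Of 8 genes listed as repressed by MYC, 3 rose and 1 fell with iBET in Ova cells, and 2 rose and 1 fell in IC cells, where 56.6% and 56.1% of all genes were called. With the block 4 rose and 2 fell in IC cells (68% of all genes called). Gadd45a (1.54 and 1.44) and Ddit3 (1.10 and 1.01), both stress response genes, rose under each stimulus. Ndrg2 fell (-1.68 and -1.20), and Cdkn1a, encoding the cell cycle inhibitor p21, rose with Ova (0.61, edgeR adjusted p 0.0272) and gave 0.46 with IC (0.0949, and 7.6e-06 with the block). None of the 8 was called for IC against Ova in edgeR by group only, beside 20.3% of all genes with DMSO and 11.8% with iBET. With the block edgeR called Gadd45g (0.44 with DMSO, adjusted p 0.0284) and Ndrg2 (0.88 with iBET, adjusted p 0.018). There 38.1% and 28.9% of all genes were called.

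Pvt1, the long noncoding RNA gene next to Myc on chromosome 15, fell with iBET by 0.48 ± 0.146 with Ova and by 0.45 ± 0.148 with IC (edgeR adjusted p 0.00825 and 0.0153), in 5 of 5 mice each time. For IC in DMSO cells it gave -0.37 by group only (edgeR adjusted p 0.0804) and -0.36 with the block (adjusted p 0.0337). Its levels were 5.67 to 8.08 CPM in iBET Ova against 7.29 to 12.7 in DMSO Ova. Its direction with iBET in Ova cells was thus opposite to that of Myc in every mouse. Of the drug's own target genes, Brd2 rose by 2.39 ± 0.0758 with Ova and 2.35 ± 0.0757 with IC (edgeR adjusted p 1.09e-14 and 8.39e-15) and Brd3 by 0.22 and 0.27. Some proliferation markers were also lower in these comparisons. Their summed level was 426 to 502 CPM in DMSO Ova and 327 to 499 in DMSO IC. It was 319 to 461 in iBET Ova and 265 to 349 in iBET IC. By the edgeR threshold 5 of 6 fell with iBET in IC cells and 1 in Ova cells. There 29% and 28.9% of all genes were called lower. With IC, 1 of the 6 markers fell with DMSO and 2 with iBET, where 10.7% and 6.63% of all genes were called lower. When the mouse was a block, 4 fell and 1 rose with iBET in Ova cells, and 6 fell in IC cells. There 68.7% and 68% of all genes were called in either direction. In the same fit 3 fell for IC with DMSO and 6 for IC with iBET, beside 38.1% and 28.9% of all genes. Their part in the levels of Myc, Mxd1 and Mxd3 was not tested.

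Over the 20 libraries, the genes whose log2 CPM ran most like that of Myc, among 9781 tested genes with a mean of at least 100 counts, were Slc7a5 (Pearson r 0.895), Sesn2 (0.881) and Smad1 (0.877). For Mycl they were Trp53i11 (0.983), Car2 (0.979) and Stk39 (0.975), and for Mxd1 Zfand5 (0.959), Usp12 (0.931) and Arf4 (0.911). After each mouse's mean was taken out, r was 0.924 for Myc and Slc7a5, 0.937 for Mycl and Trp53i11 and 0.958 for Mxd1 and Zfand5. For the other genes named it ran from 0.785 (Myc and Smad1) to 0.919 (Myc and Sesn2). With Mycl it was 0.868 for Car2 and 0.846 for Stk39. Libraries of 1 mouse are not independent, so these values are given as a description with no p.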

How the data were processed

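Bulk RNA-seq libraries from BMDCs of 5 mice in 4 groups were used. Per the methods and the submitters' processing notes, the authors trimmed reads, aligned them to mm10 with HISAT2, counted them on genes with featureCounts and deposited raw counts per gene. A second deposited table, with 20 columns of counts divided by size factors, was not used. The annotation and strand setting of the counting are not given in the sources used here. Genes were kept by filterByExpr, scaled by TMM and tested by edgeR 4.0.16 (R 4.3.3; quasi-likelihood) in 1 fit of 20 libraries by group, with Benjamini-Hochberg adjustment over 12465 genes and a threshold of 0.05. CPM values used TMM-scaled library sizes, and CPM per kb used GENCODE M21 exon lengths. Intervals are at 95%. The fit was tested on simulated data. The simulated spread between mice was smaller than that of Myc or Mycl, so that run does not bear on their calls.

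Mouse letters follow the order of the numbered library titles, which name no mouse. Pairing by animal is therefore inferred, and each blocked value rests on it. Over 30 pairs of the same letter the correlation of deviations from the group means was at least 0.307 (mean 0.524). Between letters its mean was -0.156. The split of A and B from C, D and E enters both means, so the correlation cannot settle the pairing. For the 8 tested network genes a blocked value is given wherever it changes a call; the longer lists have blocked counts. No 2 libraries of a group agreed within sampling noise (chi-square per degree of freedom at least 12.5 over 40 pairs).

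All 9 network genes are named, with lists of MLX arm genes and Mxd3, cofactors, corepressors, turnover genes, targets, Pvt1 and the BET genes Brd2 and Brd3. Of the 35 activated targets, up to 3 highest and 3 lowest called in each pairwise comparison are named. They were taken from those with a mean of at least 100 counts. Values of 2 other listed genes are not reported here. Members and lists were chosen with earlier results of these data known. Fits within mice A and B or C, D and E were added after the values were seen, as was the blocked fit of Bmyc. DESeq2 1.42.0 and sva 3.50.0 gave alternatives.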

Additional observations from a re-analysis of the deposited data

Results flagged for a closer look

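Among 32 sets of 5 values (8 genes in 4 groups), 1 held a value set apart from the other 4. Mga in iBET Ova was 174 CPM in mouse B against 118 to 129 CPM in the other mice, a gap that made up 0.797 of the range of the group, where 0.71 is the limit. About 1 in 20 such sets passes that limit by chance. Without mouse B the rise of Mga with iBET in Ova cells was 0.27 and remained past the threshold (edgeR adjusted p 0.0141).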

How the results depend on the processing

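Over 560 network gene values in 14 alternatives, 481 kept direction and side of the threshold, 41 passed it newly, 13 lost it and 25 changed sign. All 25 sign changes were of values without a call in the fit by group only, and the cause of the changes was not tested. The mouse as a replicate block changed no call of the 8 tested network genes beyond those given beside each gene.

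With the replicate block, all genes called went from 2531 to 4755 for IC with DMSO, from 1474 to 3601 for IC with iBET and from 5 to 102 for the interaction, and network genes called from 1 to 4 and from 0 to 3. DESeq2 with the block gave 4611, 3600 and 185 (network genes 4 and 3) and svaseq surrogate variables 4062, 3102 and 47 (network genes 5 with iBET in IC cells, 4 and 3). DESeq2 without the block gave 24 interactions and 1 network gene for IC with iBET. Library size alone gave 2343 genes for IC with iBET, with 2 network genes there and 2 with iBET in Ova cells. It shifted the median log2 fold change of all genes for IC from -0.0237 to -0.131 with DMSO and from -0.0141 to -0.121 with iBET, and relative to those medians Max and Mxi1 were not lower. Leaving out 1 mouse gave 1180 to 2477 genes for IC with DMSO, 643 to 1177 with iBET and 0 to 2 interactions, with 2 to 4 network genes for iBET in Ova cells and 0 to 1 for IC with DMSO. Mice A and B alone gave 500, 296 and 0 genes and 1 network gene for IC with iBET, and mice C, D and E alone 13 interactions, 5 network genes with iBET in IC cells and 1, Mxd1, for IC with iBET.

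Signs turned with library size alone for Mxi1 (iBET in IC -0.0241, IC with DMSO -0.0508) and Max (IC with DMSO -0.048, IC with iBET -0.0797), without the filter for Max (iBET in Ova 0.00662), and with surrogate variables for Mxi1 (iBET in IC -0.032, interaction -0.00137) and Mga (IC with iBET 0.0728). Without 1 mouse each, the ranges crossed 0 for Max (iBET in Ova -0.0297 to 0.0188, interaction -0.084 to 0.0148), Mxi1 (iBET in Ova -0.0968 to 0.0831, interaction -0.0186 to 0.119), Mga (IC with iBET -0.0989 to 0.0774), Mnt (interaction -0.0911 to 0.0219) and Mycl (IC with DMSO -0.178 to 0.0117). They turned in mice A and B alone for Max (iBET in Ova 0.0567), Mycl (IC with DMSO 0.286) and Mxi1 (IC with DMSO -0.114). In mice C, D and E alone they turned for Mxi1 (iBET in Ova 0.143), Mga (IC with iBET 0.103) and the interactions of Mycl (0.0353), Max (0.0112), Mxd4 (-0.0201), Mxi1 (-0.076) and Mga (0.0828).

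Fits of mice A and B alone rest on 2 libraries a group. Depth limits Mycn and Mxd3, at up to 2 and 91 counts a library.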

Other observations

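Bmyc, a paralog of Myc that is not in the list and was picked after its values were seen, was split by mouse as Mycl was. It measured 4.87, 4.56, 18.5, 14.1 and 13.2 CPM in mice A to E in DMSO Ova and 2.67, 1.68, 9.86, 7.43 and 8.66 CPM in iBET Ova. In DMSO IC it measured 4.35, 4.22, 17.8, 17.1 and 18.5 CPM and in iBET IC 2.11, 2.39, 9.26, 7.87 and 9.51 CPM. Mice A and B lay below the other 3 in every group, as for Mycl. In all 5 mice it was lower with iBET, at 0.368 to 0.657 of the DMSO level with Ova and 0.461 to 0.565 with IC, and by group only edgeR did not call it (log2 fold changes -0.87 ± 0.565 and -1.02 ± 0.564, adjusted p 0.198 and 0.131). With the mouse as a block, a fit added after the values were seen, edgeR called both (-0.90 ± 0.104 and -0.99 ± 0.102, adjusted p 3.96e-07 and 8.75e-08). IC against Ova gave 0.17 and 0.02 and was not called in either fit (edgeR adjusted p 0.875 and 0.99, and 0.323 and 0.838 with the block). The reads of Bmyc and Myc could be shared where their sequences are alike, and how the counting treated such reads is not given in the sources used here.

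Mlxipl was at 0 in 8 of 20 libraries, all of them DMSO libraries, and every iBET library held at least 2 counts. With 53 counts in all it stayed under the filter and was not tested.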
